A study of Homo sapiens with 208 samples.

Results

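The 10 heat shock chaperone genes described here were HSPA1A, HSPA1B, HSPA8, HSP90AA1, HSP90AB1, HSPH1, DNAJB1, HSPB1, HSPD1 and HSPE1. They were chosen by name, and each was found on the arrays through the transcript accession that the scanner files give for a probe. Of the 10 genes, 9 had at least 1 probe, with 22 probes in all, out of 16958 genes with a probe on the array. HSPA1B had no probe under its own accession. Its sequence is nearly identical to that of HSPA1A, so the HSPA1A values may hold transcripts of both genes. All 9 genes passed the filter on dim probes, as did 13260 genes in all. Products of 8 of the genes work mainly in the cytosol and nucleus, whereas HSPD1 and HSPE1 encode the mitochondrial chaperonin Hsp60 and its lid Hsp10, so the name cytosolic does not hold for that pair.

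RNA was taken from PC9, a lung adenocarcinoma line that depends on the epidermal growth factor (EGF) receptor and is sensitive to its kinase inhibitor gefitinib, and from PC9GRM2, a gefitinib-resistant line derived from it. All cultures had been starved for 48 h. Each line was followed without treatment, with gefitinib at 0.5 µM, with EGF at 100 ng/ml, or with both, at 26 time points from 0 to 24 h. This gave 8 courses of one-colour arrays, 1 array per time point. PC9GRM2 is a single line picked from cells that survived gefitinib, so a difference from PC9 is a difference between 2 lines and not a property of resistance. Gefitinib had been added before the 0 h sample. No culture was repeated at a time point, so the tests below take the time points as the units, and their p-values measure the spread between time points and not between cultures. Differences at successive hours were correlated, with r over members of 0.06 to 0.63 for gefitinib in PC9 and 0.24 to 0.90 with EGF. The tests take the hours as independent, so their p-values may be too small.

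Heat shock proteins hold other proteins in a folded or foldable state. Hsp70 binds exposed stretches of a client with the help of J-domain proteins, which deliver the client, and Hsp110 proteins, which exchange the nucleotide, while Hsp90 acts later on kinases and receptors, the mutant EGF receptor among them. Many of these genes are switched on by heat shock factor 1 (HSF1), which binds repeats of the unit GAA and its reverse, TTC, in their promoters.

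Since HSF1 acts through that element, it was sought in every member, in the stretch from 250 bases before to 50 bases after each start site (RefSeq, GRCh38.p14, both strands). A pair of units, GAANNTTC or TTCNNGAA, lay in such a window of 8 of the 10 genes, against 16.18% of 27305 genes. A run of 3 units, GAANNTTCNNGAA or TTCNNGAANNTTC, which contains the pairs, lay in windows of HSP90AA1, HSP90AB1, HSPA8 and HSPD1, against 0.608% of all genes. The windows of HSPH1 and HSPE1 held neither, which says only that these letters were not in this stretch. HSPD1 and HSPE1 lie head to head with 104 bases between them, and their windows share 204 bases. The windows of HSPA1A and HSPA1B were the same at 277 of 300 bases. HSPA8 and HSP90AB1 each held a further run of 3, HSP90AA1 a further pair and DNAJB1 2 further pairs. For each gene 1 match is printed, 5′ to 3′ on the gene's strand, with the units in capitals and 6 bases on each side except where a window ended.
HSPA8 (chr11:123062173-123062197, minus strand): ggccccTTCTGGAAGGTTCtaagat
HSP90AA1 (chr14:102087114-102087138, minus strand): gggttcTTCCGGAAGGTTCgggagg
HSP90AB1 (chr6:44247772-44247796, plus strand): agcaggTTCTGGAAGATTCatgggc
HSPD1 (chr2:197500062-197500090, minus strand): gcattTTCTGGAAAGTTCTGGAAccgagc
HSPA1A (chr6:31815431-31815450, plus strand): accctgGAATATTCccgacc
HSPA1B (chr6:31827627-31827646, plus strand): cccctgGAATATTCccgacc
HSPB1 (chr7:76302485-76302504, plus strand): acgagaGAAGGTTCcagatg
DNAJB1 (chr19:14518461-14518480, minus strand): ggggcgGAAGGTTCtggagg

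The 4 arrays of a slide were the 4 courses of a line at the same hour, and the lines shared 0 slides and 0 scan days. The arrays of PC9 were read up to a ceiling near 65526, with 221 to 1702 saturated features, and those of PC9GRM2 up to about 779239, with 0. Line, slide and scanner ceiling therefore cannot be told apart. Between 24755 and 36332 features were well above background on the PC9 arrays, and between 26982 and 33937 on those of PC9GRM2. The epithelial markers EPCAM, CDH1, KRT8, KRT18 and KRT19 were above background on 104 of 104 arrays of each line. Of the mesenchymal markers, VIM was above background on 104 arrays of PC9 and 104 of PC9GRM2, ZEB1 on 9 and 2 and CDH2 on 2 and 0. Of the fibroblast markers, COL1A2 was above background on 5 and 4 arrays and DCN on 19 and 12. Of the blood markers, PTPRC was above background on 1 and 0 arrays, CD3E on 52 and 32 and CD14 on 104 and 104, and of the endothelial ones CDH5 on 18 and 16, PECAM1 on 103 and 104 and VWF on 104 and 104. The part of such genes in the results was not tested. Of the lung lineage genes, NAPSA was above background on 103 and 104 arrays and SFTPB on 46 and 43, but the lung adenocarcinoma factor NKX2-1 on only 9 and 4.

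A pair of PC9GRM2 libraries at 0.5 h went against their labels. DUSP6, a phosphatase induced by ERK signalling, was at 7.75 (log2) in the library labelled EGF, against 12.00 to 13.89 at its other hours. In the library labelled EGF+gefitinib it was at 12.54, against 7.51 to 11.53. Some single arrays also stood apart from the arrays before and after them in the same course, with a median deviation over genes of 0.67 for untreated PC9GRM2 at 11 h, 0.54 for untreated PC9 at 18 h and 0.48 for PC9 with gefitinib at 16 h, where the median array had 0.19. Leaving out 0.5, 11, 16 and 18 h changed no call of a gefitinib effect, and values that moved are given where they are described. Counts recomputed with hours left out or under another setting are given without the share of all genes in that setting.

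The levels below are log2 signals of 1 probe, quantile-normalized, and a level of one gene is not comparable with that of another. An effect is the mean of the differences at matched hours, given with its standard error (SE) over 26 time points. A gene is called when its adjusted p in limma (Benjamini-Hochberg over 13260 genes, two-sided) was under 0.05. In bulk RNA, fewer cells expressing a gene and less RNA per cell cannot be told apart.

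Gefitinib lowered 7 of the 9 measured genes in PC9 and raised 1, HSPB1. Over all genes 37.2% were called lower and 35.1% higher, so a call was common, and the median difference of the members was -0.88 on the log2 scale against -0.02 for all genes tested. With each array scaled to its 75th percentile instead, HSPA8, HSP90AA1 and HSPD1 were at 0.26, 0.14 and 0.24 in PC9, read from other probes that were saturated on every untreated PC9 array, whereas with the same probes as here this scaling left all 3 negative. In PC9GRM2 gefitinib again lowered 7 and raised HSPB1, against 34.1% lower and 32.6% higher over all genes, with medians of -0.52 and -0.01. The mitochondrial gene HSPE1 was lowered in PC9GRM2 but saturated in PC9, and HSPA1A, with the probe used, passed the test in PC9 and not in PC9GRM2. In every case the ranges of the treated and the untreated course overlapped.

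**Figure D1:**
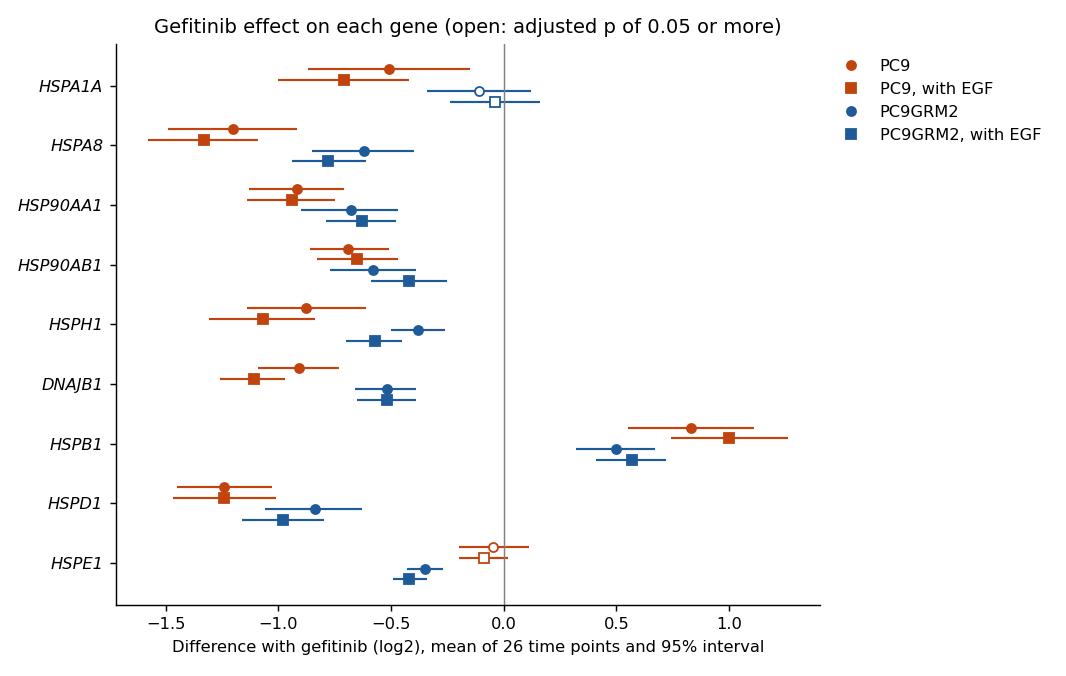
Mean difference (log2, gefitinib minus no gefitinib at matched hours) with its 95% interval for each member, without and with EGF, in both lines; open symbols did not pass the test. HSPB1 sits above 0 in all 4 series, and HSPA8, HSP90AA1, HSP90AB1, HSPH1, DNAJB1 and HSPD1 sit below it, of which HSPA8, HSP90AA1 and HSPD1 were positive in PC9 under scaling to the 75th percentile with the other, saturated probes chosen there.

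HSPA8 encodes Hsc70, the Hsp70 that cells make without stress. In untreated PC9 its lowest level was 14.08 at 1 h, its median 14.91 and its highest 15.74 at 18 h. With gefitinib the corresponding levels were 12.92 at 21 h, 13.60, and 14.50 at 16 h. The treated course thus lay mostly below the untreated one, and the highest treated level fell at an hour whose array stood apart. The level was lower by 2.30-fold (difference -1.20 ± 0.14, adjusted p = 1.28e-08), in 24 of 26 time points. In PC9GRM2 the levels ran from 13.08 through a median of 14.32 to 15.39 untreated, and from 12.82 through 13.51 to 14.69 with gefitinib. The drop was 1.54-fold (-0.62 ± 0.11, adjusted p = 1.29e-05), in 22 of 26 time points. The 11 h array of untreated PC9GRM2, which stood apart, gave the opposite sign, and without 0.5, 11, 16 and 18 h the difference was -0.73. All these HSPA8 values come from 1 probe. The other HSPA8 probes, which carry another transcript variant, gave -0.19, -0.21 and 0.01 in PC9GRM2, as given with the probes.

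HSPA1A encodes the stress-inducible Hsp70. Its levels in untreated PC9 ran from 11.97 at 1 h through a median of 14.96 to 15.67 at 24 h, and with gefitinib from 12.28 at 3 h through 14.01 to 15.19 at 24 h. Both courses climbed over the day and overlapped widely. Gefitinib lowered it 1.43-fold (-0.51 ± 0.17, adjusted p = 0.0101), in 19 of 26 time points. The difference was widest at 3 h, where the untreated array read 15.51 on a saturated spot against 11.97 to 12.99 at the earlier hours, while the EGF array of that hour read 11.74. With saturated spots left out the difference was -0.41 (adjusted p = 0.0158), and with the courses compared unpaired the call was lost (adjusted p = 0.0651). In PC9GRM2 the levels were 12.47, 14.89 and 16.05 untreated and 13.27, 14.63 and 15.95 with gefitinib as lowest, median and highest. There the difference of -0.11 did not pass the test (adjusted p = 0.384), nor did the -0.23 found without 0.5, 11, 16 and 18 h. Another HSPA1A probe gave -0.12 in PC9GRM2, which did pass it (adjusted p = 0.0183).

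HSPH1 encodes Hsp110, the nucleotide exchange partner of Hsp70. Untreated PC9 ran from 13.06 at 1 h through 15.06 to 15.51 at 21 h, with 9 of 26 spots saturated, and PC9 with gefitinib from 12.89 through 13.98 to 14.52. The treated median lay below the untreated one although saturation holds the untreated levels down. The fall was 1.84-fold (-0.88 ± 0.13, adjusted p = 8.36e-07), in 23 of 26 time points, and -0.71 without the saturated spots. PC9GRM2 ran from 14.04 through 15.25 to 15.68 untreated and from 13.87 through 14.80 to 15.60 with gefitinib, a drop of 1.30-fold (-0.38 ± 0.06, adjusted p = 1.74e-06). It had no saturated spot and was lower in 23 of 26 time points.

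DNAJB1 encodes Hsp40, the J-domain partner that hands clients to Hsp70. Untreated PC9 ran from 11.56 at 0.5 h through 13.20 to 14.01 at 13 h, and PC9 with gefitinib from 11.57 at 0.5 h through 12.26 to 12.72 at 13 h. Lowest and highest levels fell at the same hours in both courses, and the treated one spanned a narrower range. The difference was -0.91 ± 0.09, or 1.88-fold (adjusted p = 5.25e-10), in 25 of 26 time points. PC9GRM2 ran from 12.15 through 12.85 to 13.75 untreated and from 11.57 through 12.30 to 13.30 with gefitinib. Its difference of -0.52 ± 0.06, or 1.44-fold, had an adjusted p of 3.36e-08 and the same sign at 26 of 26 time points.

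The Hsp90 pair consists of HSP90AA1, the more inducible form, and HSP90AB1, the constitutive one. HSP90AA1 ran from 13.18 through 14.38 to 15.23 in untreated PC9 and from 12.61 through 13.44 to 14.31 with gefitinib. In PC9GRM2 it ran from 12.88 through 13.66 to 14.61 and from 11.34 through 12.98 to 13.90. With the probe used it was thus lower with gefitinib in each line. The fall was 1.89-fold in PC9 (-0.92 ± 0.10, adjusted p = 7.53e-09, 25 of 26 time points) and 1.60-fold in PC9GRM2 (-0.68 ± 0.10, adjusted p = 1.65e-06, 24 of 26). Its other probes gave smaller falls, none of them called in PC9, as given with the probes. HSP90AB1 ran from 11.91 through 12.72 to 13.78 in untreated PC9 and from 10.77 through 12.19 to 12.93 with gefitinib. In PC9GRM2 it ran from 11.18 through 11.99 to 13.18 and from 10.36 through 11.41 to 12.76. It fell 1.61-fold in PC9 (-0.69 ± 0.09, adjusted p = 5.1e-08), at 26 of 26 time points, and 1.49-fold in PC9GRM2 (-0.58 ± 0.09, adjusted p = 2.97e-06), at 23.

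HSPB1 encodes Hsp27, a small heat shock protein that binds unfolding clients without ATP. It was the only member that rose with gefitinib. Untreated PC9 ran from 13.24 at 21 h through 13.97 to 14.87 at 9 h, and PC9 with gefitinib from 14.10 at 0 h through 14.97 to 15.36 at 22 h. The untreated course ended low and the treated one high. The rise was 1.78-fold (0.83 ± 0.13, adjusted p = 3.06e-06), in 24 of 26 time points. PC9GRM2 ran from 12.89 through 13.85 to 14.91 untreated and from 13.67 through 14.41 to 15.10 with gefitinib. The rise there was 1.41-fold (0.50 ± 0.09, adjusted p = 1.31e-05), again in 24 of 26.

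With the probes used, HSPD1, the mitochondrial Hsp60, had the largest mean difference of the members in either line. Untreated PC9 ran from 10.94 through 11.88 to 12.81, and PC9 with gefitinib from 8.60 at 17 h through 10.57 to 11.63 at 1 h. PC9GRM2 ran from 10.63 through 11.18 to 12.75 and from 9.63 through 10.50 to 11.16. The fall was 2.36-fold in PC9 (-1.24 ± 0.10, adjusted p = 1.55e-11), in 26 of 26 time points, and 1.80-fold in PC9GRM2 (-0.84 ± 0.11, adjusted p = 5.45e-08), in 24. This was the value of 1 of its 2 probes. The other, brighter probe gave only -0.20 in PC9GRM2, where no spot was saturated, as given with the probes.

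HSPE1, which encodes the Hsp10 lid of that chaperonin, could be followed only in PC9GRM2. Its probe was saturated on 26 of 26 untreated PC9 arrays and on 17 of 26 with gefitinib, so its difference of -0.05 in PC9 has no readable size. In PC9GRM2 it ran from 15.63 through 16.15 to 16.45 untreated and from 15.50 through 15.77 to 16.20 with gefitinib. The drop of 1.28-fold (-0.35 ± 0.04, adjusted p = 1.16e-08) was small and held at 26 of 26 time points.

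**Figure D2:**
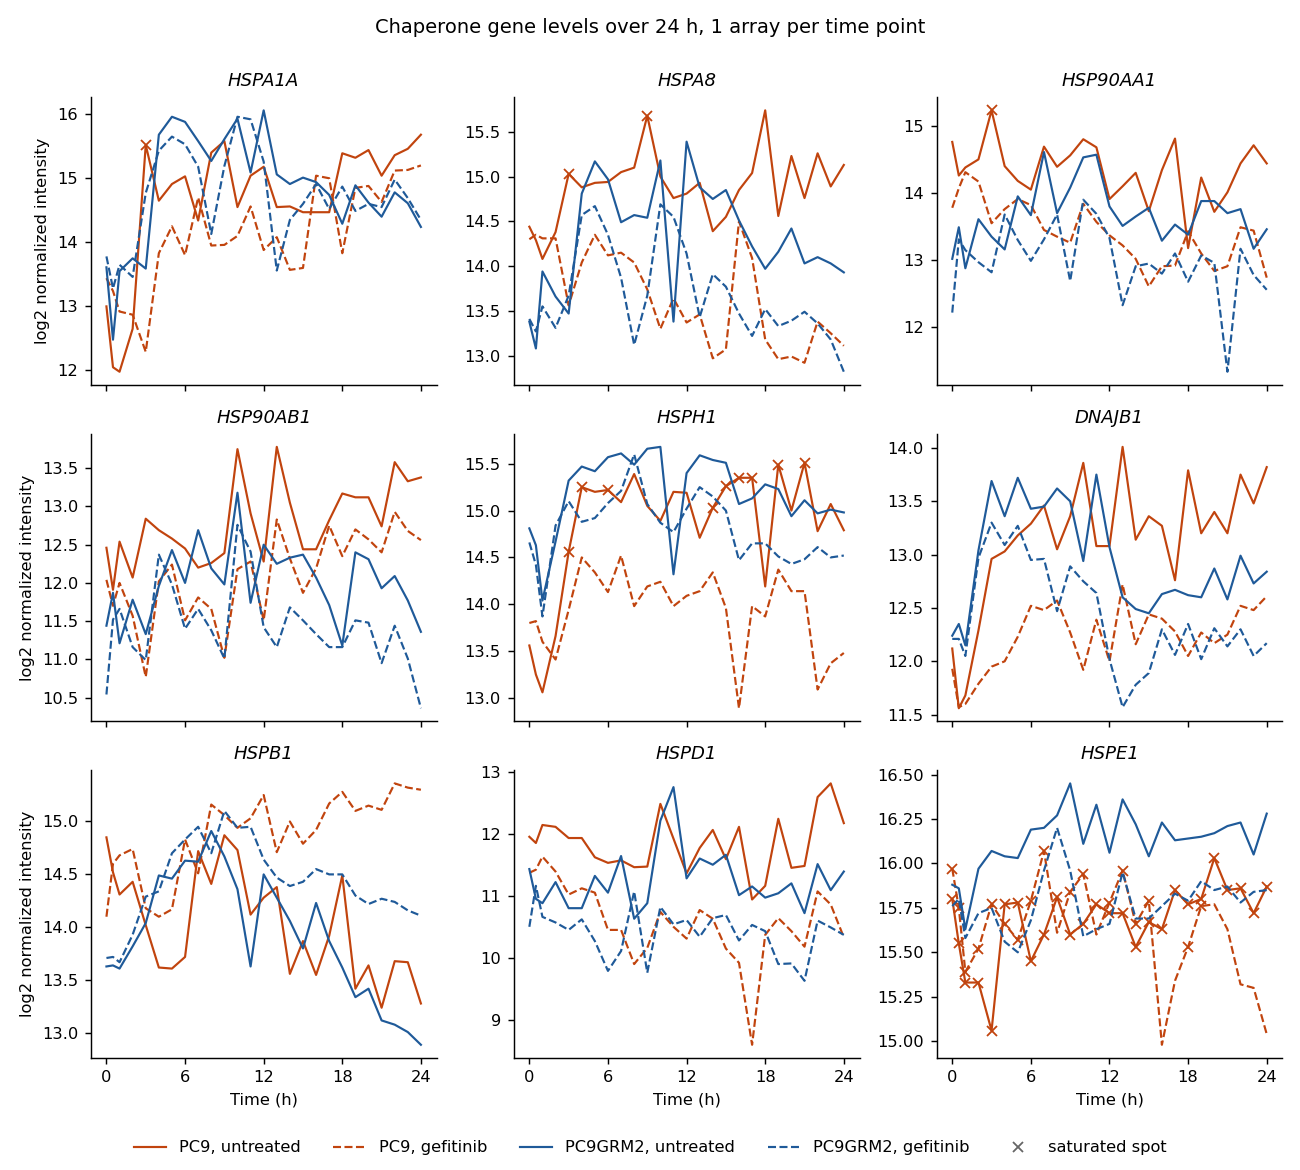
Log2 level of each of the 9 members by hour in the untreated and gefitinib courses of both lines, 1 array per point, with a cross on saturated spots. In PC9 the HSPA8 and HSPD1 courses with gefitinib part from the untreated ones downwards and HSPB1 upwards, and HSPE1 in PC9 is made mostly of saturated spots.

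The same contrast was measured again in the presence of EGF, in other arrays. In PC9, 7 members were lower and HSPB1 higher, against 39.9% and 39% of all genes, and the differences ran from -1.33 for HSPA8 and -1.24 for HSPD1 to 1.00 for HSPB1. The HSPE1 probe was saturated on 26 of 26 EGF and 15 of 26 EGF+gefitinib arrays, so no direction or size can be read for it. In PC9GRM2, 7 were lower and HSPB1 higher, against 37.8% and 36.7% of all genes. HSPD1 had a difference of -0.98, HSPA8 of -0.78, HSPH1 of -0.57 and HSPB1 of 0.57 there, and HSPA1A was not called (-0.04). Without the 0.5 h time point, which holds both libraries that went against their labels, 8 members were again called, with -1.03 for HSPD1, -0.81 for HSPA8, -0.60 for HSPH1 and 0.59 for HSPB1.

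EGF itself moved no member past the threshold in either line. With limma 0 of 9 were called in PC9, where 25.6% of all genes were, and 0 of 9 in PC9GRM2, where 9.13% were. The differences ran from -0.08 to 0.14 in PC9 and from -0.03 to 0.16 in PC9GRM2. The methods' t-test called 1 member in PC9, HSPD1, and 2 in PC9GRM2, HSPH1 and HSPE1, before adjustment. The 95% intervals reached from -0.30 to 0.35 at most in PC9, both for HSPA1A. No member's EGF effect differed between the lines by the test (0 of 9, against 1.33% of all genes). Without 0.5 h the count in PC9GRM2 was again 0.

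The 8 courses were also ordered by mean level. For HSPA8 the mean levels fell in the order PC9 with EGF at 14.89, untreated PC9 at 14.87, PC9GRM2 with EGF at 14.46, untreated PC9GRM2 at 14.30, and then PC9GRM2 with both at 13.69, PC9GRM2 with gefitinib at 13.68, PC9 with gefitinib at 13.67 and PC9 with both at 13.56. The SDs of these courses were 0.39 to 0.61, so the last 4 lay within the spread of each other, as did each EGF course and its untreated partner. For HSPB1 the order ran the other way, from PC9 with both at 14.95 and PC9 with gefitinib at 14.87 down to untreated PC9GRM2 at 13.91 and PC9GRM2 with EGF at 13.88. For HSPH1 the 4 courses of PC9GRM2 and the 2 of PC9 without gefitinib had means of 14.73 to 15.31, and PC9 with gefitinib or with both stood lowest at 13.93 and 13.86.

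The gefitinib effect was not the same over the day. In PC9 it varied with time for 6 members in a spline fit (limma F-test), against 52.3% of all genes. Averaged over the 7 time points up to 5 h and the 7 from 18 h on, the HSPA8 difference went from -0.40 to -1.97, that of HSPH1 from -0.16 to -1.19, that of DNAJB1 from -0.53 to -1.19 and that of HSPD1 from -0.65 to -1.43. The gap thus widened in the late hours for these genes. For HSPB1 it went from 0.17 to 1.60. The fitted effects spanned 2.16 for HSPA8 (adjusted p = 0.000315), 2.05 for HSPB1 (8.02e-06), 1.97 for HSPH1 (0.000376), 1.24 for HSPD1 (0.00332) and 1.09 for DNAJB1 (0.0128) on the log2 scale. HSPE1 was the other member called, on saturated spots.

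In PC9GRM2 only DNAJB1 (fitted span 0.80, adjusted p = 0.00303) and HSPB1 (1.25, adjusted p = 0.000211) passed that test, against 45.5% of all genes. The HSPB1 difference went from 0.10 in the early window to 1.04 in the late one, and that of HSPA8 from -0.15 to -0.79 without a call. Leaving out 0.5, 11, 16 and 18 h, which hold the arrays that stood apart most, gave 4 calls in PC9GRM2 and 6 in PC9.

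**Figure D3:**
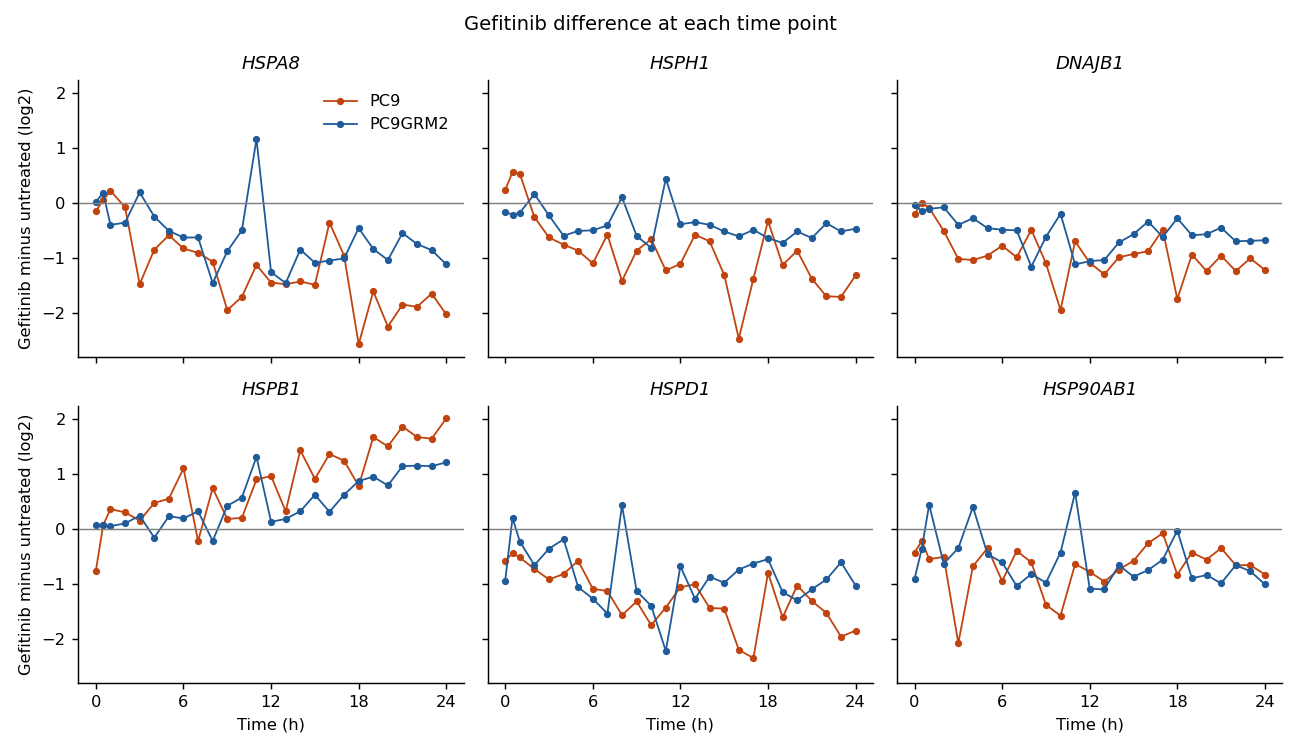
Difference between the gefitinib and the untreated array (log2) by hour for HSPA8, HSPH1, DNAJB1, HSPB1, HSPD1 and HSP90AB1, in PC9 and PC9GRM2. The HSPB1 points of both lines climb towards 24 h, and those of HSPA8 in PC9 sink from near 0 to about -2.

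The members also moved over the courses without the drug. In untreated PC9, 6 of 9 changed with time, a share near the 66.3% of all genes. HSPA1A climbed furthest, with a fitted span of 3.55, or 11.7-fold (adjusted p = 3.73e-06), followed by HSPH1 at 4.67-fold (2.25e-06) and DNAJB1 at 4.08-fold (4.61e-06). These were the inducible Hsp70 and its 2 partners, and all were lowest at 0.5 or 1 h, as were HSPA8 and HSP90AB1. HSPB1 instead fell, from a mean of 14.20 in the early window to 13.63 in the late one. With gefitinib 7 of 9 members changed with time in PC9, a share near the 77.8% of all genes. HSPA1A still climbed, from 13.25 to 14.79, whereas DNAJB1 went only from 11.87 to 12.34, against 12.40 to 13.52 without the drug, and HSPA8 fell from 14.17 to 13.11. Without 0.5, 11, 16 and 18 h, 5 members were called untreated and 9 with gefitinib.

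In untreated PC9GRM2 all 9 members changed with time, against 67.2% of all genes, and 5 did with gefitinib, against 63.7%. The fitted levels of HSPA1A, HSPA8, HSPH1, DNAJB1 and HSPB1 were highest at 6 to 8 h, with spans of 2.95, 1.57, 1.16, 1.53 and 1.80. In untreated PC9 the fitted levels were highest at 24 h for HSPA1A and DNAJB1, 6 h for HSPA8, 7 h for HSPH1 and 0 h for HSPB1. The shapes of the courses were not tested against each other. Without the same 4 hours 8 members were called untreated and 5 with gefitinib. With scan day as a random block, 4 members were called untreated and 3 with gefitinib, and scan days follow the hours, so their part in the time course was not tested.

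Whether gefitinib acted differently on a gene in the 2 lines was tested as the difference of the effects, PC9GRM2 minus PC9. It was called positive, which for genes lowered by gefitinib means a smaller drop in PC9GRM2, for HSPA8, HSPH1, DNAJB1 and HSPD1, against 17% of all genes. It was called negative for HSPB1, whose rise was smaller, and for HSPE1, against 16.9%. The values were 0.58 ± 0.15 for HSPA8 (adjusted p = 0.0028), 0.49 ± 0.13 for HSPH1 (0.00364), 0.38 ± 0.10 for DNAJB1 (0.00338), 0.39 ± 0.13 for HSPD1 (0.0202) and -0.33 ± 0.10 for HSPB1 (0.0137). HSPA1A (0.40), HSP90AA1 (0.24) and HSP90AB1 (0.11) did not pass the test. Gefitinib effects were smaller in PC9GRM2 over all genes as well, with a median absolute difference of 0.32 against 0.44 in PC9. Compared unpaired, 2 members, HSPA8 and HSPE1, were called, and with time points 3 h apart or with the first 13 alone, 1. For HSPH1 the call was lost without saturated spots (0.40, adjusted p = 0.0845), and for HSPB1 with 1 of its other probes (-0.28, adjusted p = 0.0888). For HSPA8, HSP90AA1 and HSPD1 the sign was not the same with all probes. It was at -0.54, -0.68 and -0.57 under the scaling to the 75th percentile with other probes, whose PC9 spots were saturated.

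Of the members, 6 had more than 1 probe, and these were compared. For each of the 6 the probe used, picked for its variance, gave the largest absolute gefitinib effect in PC9. For HSPB1 all 3 probes rose, by 0.74, 0.78 and 0.83 in PC9 and by 0.48, 0.50 and 0.50 in PC9GRM2. For HSP90AB1 all 3 fell, by 0.22, 0.42 and 0.69 in PC9 and by 0.14, 0.27 and 0.58 in PC9GRM2. These 2 genes kept their direction with every probe. In PC9GRM2, where no spot was saturated, the other probes of HSP90AA1 gave -0.32, -0.38 and -0.19, and the other probe of HSPD1 gave -0.20, all of the sign of the reported -0.68 and -0.84 but smaller. In PC9 the same HSP90AA1 probes gave -0.11, -0.05 and -0.21, none of them called. They had up to 26, 26 and 8 of 26 spots of a course saturated.

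For HSPA8 the probes differed in sign. The probe reported here carries the accession of another transcript variant than the other 3, which gave -0.19, -0.21 and 0.01 in PC9GRM2. In PC9 those 3 probes gave 0.08, -0.06 and 0.15, with 24 to 26 of 26 spots of a course saturated, so they cannot show a fall there. The HSPA8 result is therefore one about the signal of a single probe. For HSPD1 the other probe was saturated on all arrays of a PC9 course and gave 0.09. HSPA1A gave -0.48 with a further probe in PC9 and 0.07 with another that was saturated on 23 of 26 arrays of a course. In PC9GRM2, without saturated spots, these 2 HSPA1A probes gave 0.02 and -0.12, and only the second was called. HSPH1, DNAJB1 and HSPE1 had 1 probe each. Probe sequences were not used here, and HSPA8, HSP90AA1, HSP90AB1, HSPD1 and HSPE1 are known for processed copies elsewhere in the genome, whose transcripts may add to a probe's signal.

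**Figure D4:**
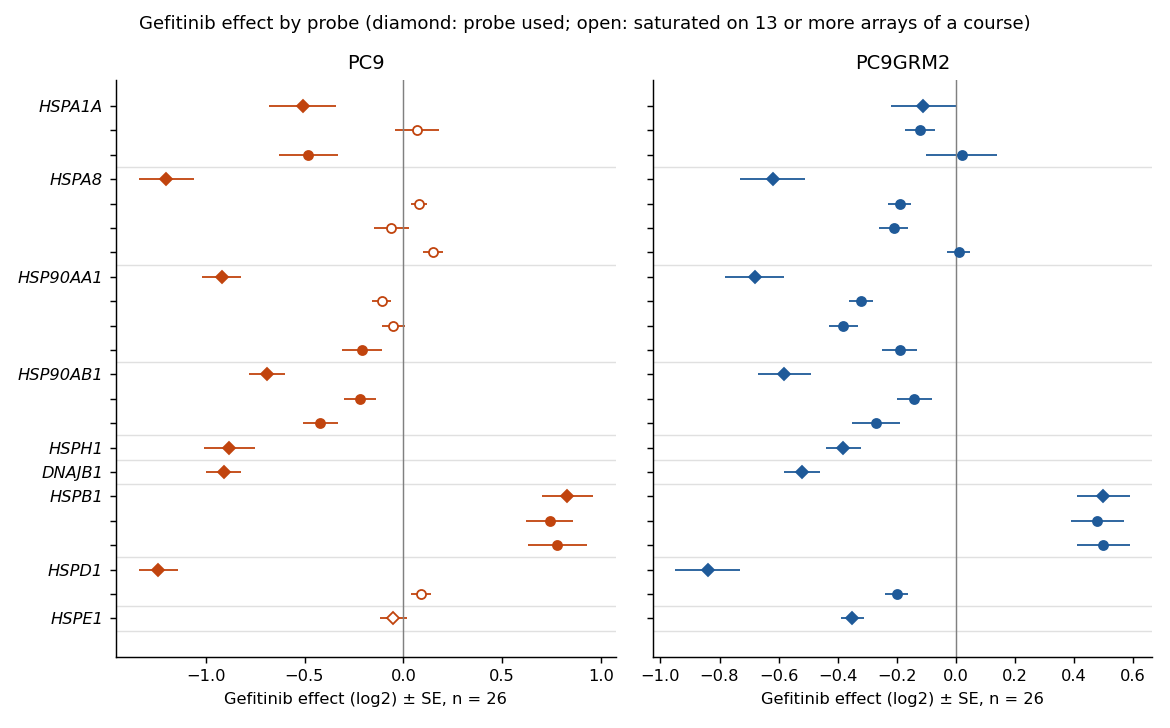
Gefitinib effect (log2, mean difference with its SE over 26 time points) by each of the 22 probes in PC9 and PC9GRM2; a diamond marks the probe used, and open symbols mark probes saturated on 13 or more arrays of a course. The HSPB1 probes sit together above 0, while those of HSPA8 and HSPD1 spread from 0.15 down to -1.24.

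Between the lines without treatment, HSPA8, HSP90AA1, HSP90AB1 and HSPD1 were called lower in PC9GRM2, against 37% of all genes, and HSPH1 and HSPE1 were called higher, against 31.1%. HSP90AB1 had the largest difference, -0.78 ± 0.13 (adjusted p = 4.39e-06), lower at 24 of 26 time points, and its other probes gave -0.41 and -0.45. The difference was -0.67 for HSP90AA1 (7.87e-06), -0.58 for HSPD1 (3.59e-05) and -0.57 for HSPA8 (0.000182). Other probes read 0.25, 0.05 and -0.47 for HSP90AA1, 0.64 for HSPD1, and 0.58, -0.22 and 0.60 for HSPA8. Under the scaling to the 75th percentile, with the probes chosen there, the 3 genes read 1.46, 1.74 and 1.84. The probes behind these positive values were saturated on 26 of 26 untreated PC9 arrays, so they give no size and do not settle the direction. Those behind -0.47 and -0.22 were saturated on 8 and 24 of 26. HSPH1 was higher by 0.36 (adjusted p = 0.00432), and by 0.50 without the saturated spots of PC9. Saturation on 9 of 26 untreated PC9 arrays holds the PC9 level down. Leaving those spots out drops the hours at which PC9 reached its ceiling. Both values are therefore shifted towards higher in PC9GRM2, and neither gives the size. HSPE1 read 0.45 higher at 26 of 26 time points, but its PC9 spots were all saturated, so neither the size nor the direction is known. HSPA1A, DNAJB1 and HSPB1 were not called.

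With gefitinib 2 members were higher and 3 lower in PC9GRM2 than in PC9. HSPH1 was 0.86 ± 0.08 higher in PC9GRM2 (1.81-fold, adjusted p = 3.93e-10), at 26 of 26 time points and with no saturated spot in either course. HSPA1A was 1.49-fold higher on average (0.57 ± 0.17, adjusted p = 0.00343), higher at 17 time points and lower at 9. Its mean difference was 1.03 up to 5 h and -0.16 from 18 h on, with -0.85 at 24 h. Higher calls made up 30.7% of all genes and lower calls 34.3%. The 3 lower members were HSP90AB1 (-0.67, adjusted p = 0.000164), HSPB1 (-0.46, 0.000191) and HSP90AA1 (-0.43, 0.000997). HSPA8, at 0.01 ± 0.13, did not pass the test. With EGF 2 members were higher and 4 lower in PC9GRM2, against 32.8% and 37% of all genes, and with both 4 were higher and 4 lower, against 31.5% and 36.2%. Without 0.5 h these were 6 and 8 calls, and without 0.5, 11, 16 and 18 h, 6 and 6. HSPE1 was among the higher calls with EGF and with both, where its PC9 spots were saturated on 26 and 15 of 26 arrays. An SE widened for autocorrelation left 2 calls between the lines with gefitinib and 2 with both.

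**Figure D5:**
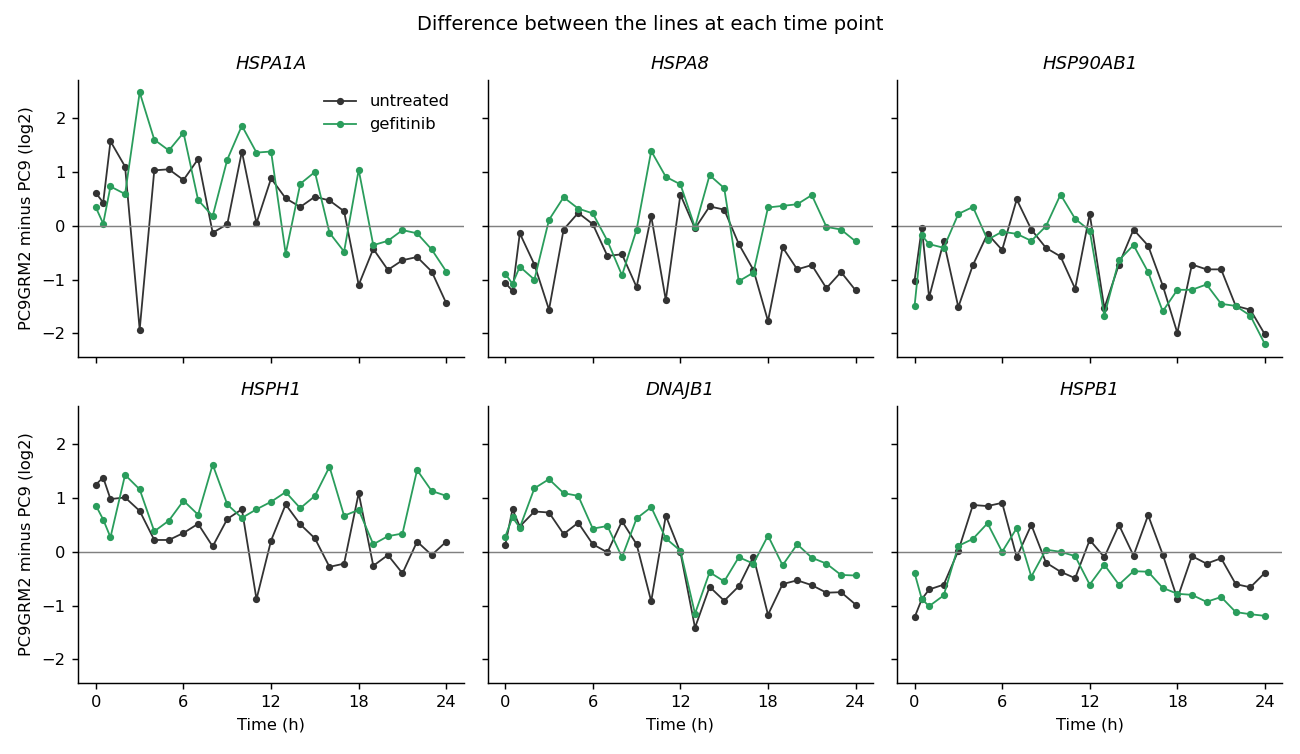
PC9GRM2 minus PC9 (log2, same hour) for HSPA1A, HSPA8, HSP90AB1, HSPH1, DNAJB1 and HSPB1 in the untreated and the gefitinib courses. The HSPH1 points with gefitinib are all above 0, between 0.14 and 1.62, and most HSP90AB1 points are below it.

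The wider chaperone network was read from lists of known genes. Of the 4 regulators of the heat shock response, 3 fell with gefitinib in PC9, against 37.2% of all genes. HSF1, the activator itself, had a difference of -0.47 (adjusted p = 0.000895), with 10 of 26 untreated spots saturated, and HSF2 one of -0.28, while HSBP1, which binds HSF1, fell by 0.44. HSF4 rose by 0.87. In PC9GRM2 HSF4 rose (0.56) and HSBP1 fell (-0.34), and HSF1 and HSF2, at -0.04 and -0.05, were not called. The difference of the HSF1 effects, PC9GRM2 minus PC9, was 0.46 (adjusted p = 0.00485). Untreated, HSF1 was 0.97 lower and HSF2 0.75 higher in PC9GRM2 than in PC9, the first against partly saturated spots.

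Of 10 further Hsp70, Hsp110 and small Hsp genes tested, 4 rose and 6 fell with gefitinib in PC9, against 35.1% and 37.2% of all genes, and 4 rose and 5 fell in PC9GRM2, against 32.6% and 34.1%. CRYAB, a small heat shock protein like HSPB1, rose by 2.00 in PC9. HSPA2, a testis-rich Hsp70, rose by 1.76 in PC9 and 1.02 in PC9GRM2. The strictly inducible HSPA6 fell by 2.41 and 1.63, and the Hsp110 gene HSPA4 fell by 0.99 and 0.78. HSPA6 was above background on 17 of 26 gefitinib arrays of PC9, so its size there is less certain.

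Of the cochaperones of Hsp90, 13 of 15 fell in PC9, where 37.2% of all genes did, and 11 of 15 in PC9GRM2, where 34.1% did, with 2 higher in each. FKBP5, a peptidyl-prolyl isomerase of steroid receptor complexes, fell by 1.51 in PC9 and by 1.13 in PC9GRM2, and CHORDC1 by 1.46 in PC9. Among the cytosolic chaperonin CCT and its feeder prefoldin, 10 of 14 fell in each line, with CCT5 at -1.36 and -0.73. PFDN5 rose by 0.64 and 0.48. Of the J-domain and Hsp70 cochaperones 8 of 18 fell and 3 rose in each line, a share of falls near that of all genes. BAG2, an inhibitor of the ubiquitin ligase CHIP, fell by 1.44 and 1.17, and DNAJB2, a J-domain protein enriched in neurons, rose by 1.08 and 0.64.

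Of the other mitochondrial chaperones and proteases 8 of 12 were lower in PC9, against 37.2% of all genes, and 10 of 12 in PC9GRM2, against 34.1%, with 1 higher in each. The chaperones of the endoplasmic reticulum, which answer to a different stress pathway, were mixed. In PC9 4 of 17 rose and 7 fell, against 35.1% and 37.2% of all genes, and in PC9GRM2 7 rose and 2 fell, against 32.6% and 34.1%. HERPUD1, a factor of protein removal from that compartment, rose by 1.13 and 0.92.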

How the data were processed

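The authors hybridised RNA of each time point to 1-colour Agilent whole human genome arrays. The intensities used here are the processed (background-subtracted) signals in the deposited scanner files (Feature Extraction 10.5.1.1 per the file headers). The authors' deposited series table holds quantile-normalized intensities of the same arrays and served as an alternative. Its column medians are all 125.

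Signals were quantile-normalized over all arrays without control spots, set to a floor of 1 and put on the log2 scale. Spots marked as outliers by the scanner software (0.301% of spots of the tested probes) were left out and spots of a probe averaged. A gene was read from its probe with the largest variance, as in the authors' methods, and kept where at least 13 of 26 arrays of a course were well above background. Of 41000 probes, 24789 carried 1 gene symbol. Courses were compared in limma 3.58.1 (R 4.3.3) on differences at matched hours, which pairs arrays of 1 slide within a line, and time was fitted as a natural spline with 4 degrees of freedom. Groups came from the labels. The limits of precision are the number of arrays and saturation.

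All members are named. From each further list the text names at most the strongest rises and falls among called genes, and all regulators. Members and lists were chosen with earlier results of these data known. Alternatives covered scaling, background (normexp on median signals, since mean signals were not used here), floor, filter, probe choice, saturated spots, outlying points, hours, pairing, autocorrelation, scan day and the authors' t-test. The scaling with fixed probes and both sets of omitted hours were chosen after seeing the data. The fits were tested on simulated data. HSPA1B was not analysed here, and the counts of the list of further genes bound by HSF1 are not reported here.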

Additional observations from a re-analysis of the deposited data

Results flagged for a closer look

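The gefitinib effect differed between PC9GRM2 and PC9 for 6 members by the test of the difference itself (limma, Benjamini-Hochberg over all tested genes, PC9GRM2 minus PC9 on the log2 scale). HSPA8 stood at 0.58 (adjusted p = 0.0028), HSPH1 at 0.49 (0.00364), DNAJB1 at 0.38 (0.00338) and HSPD1 at 0.39 (0.0202), each with a smaller fall in PC9GRM2. HSPB1 stood at -0.33 (0.0137), with a smaller rise in PC9GRM2. Over all genes the median absolute gefitinib difference was also smaller in PC9GRM2, at 0.32 against 0.44 in PC9. HSPE1 stood at -0.30 (0.00363), where the PC9 spots were saturated. Among these 6 differences, those of HSPA8 and HSPD1 changed sign with other probes, and those of HSPH1, DNAJB1 and HSPB1 kept their sign under every alternative run. HSPH1 and DNAJB1 had no other probe to compare, and with 1 other probe HSPB1 was not called (-0.28, adjusted p = 0.0888). The calls of HSPH1, DNAJB1 and HSPB1 were lost when the courses were compared unpaired. The HSPE1 value rests on saturated spots, and its mean was 0.03 from 18 h on.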

How the results depend on the processing

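Of 349 counts of called members recomputed under the alternatives, 301 stayed within 1.5 times the reported count. The share of all genes called under an alternative is not given here, so these counts are set only against the reported counts. The deposited table, the floor of 16 and a filter on all 26 arrays moved none of them beyond that. Where a value below moved or turned, the cause was not tested, except that choosing another probe, fewer hours or a stricter rule changes the values by construction. Requiring a difference of at least 1 as well left 2 members for gefitinib in PC9, 5 with EGF there, 0 for gefitinib in PC9GRM2 with or without EGF, 0 in each of the 4 comparisons of lines and 0 for the difference of the gefitinib effect. With the brightest probe of each gene 4 members were called for gefitinib in PC9, 4 with EGF there, 1 for EGF in each line, 4 for time in PC9 with gefitinib and 4 for time of the gefitinib effect in PC9GRM2. Scaling to the 75th percentile gave 5 for gefitinib with EGF in PC9, 1 for EGF in PC9, 8 between the lines with gefitinib and 6 for time of the gefitinib effect in PC9GRM2, and with the same probes as reported it gave 1 and 4 for EGF in PC9 and that time effect. EGF in PC9 had 2 calls with normexp (HSPB1 and HSPD1) and 1 with the mean of all probes, with outlying points replaced, by the unadjusted t-test, without 0.5, 11, 16 and 18 h, and in the last 13 time points. EGF in PC9GRM2 had 1 call with outlying points replaced, 1 in the last 13 and 2 by the unadjusted t-test. Time of the gefitinib effect in PC9GRM2 had 4 calls with outlying points replaced and 4 without those 4 hours. With scan day as a random block, time had 4 calls in untreated PC9GRM2 and 3 with gefitinib. The first 13 time points gave 5 for gefitinib in PC9GRM2, 5 between the lines with both agents and 1 for the difference of the gefitinib effect. The last 13 gave 3 between the lines with both agents and 1 for the difference of the EGF effect. Time points 3 h apart gave 3 and 1 for the lines with both agents and the difference of the gefitinib effect. An SE widened for autocorrelation gave 2 between the lines with gefitinib and 2 with both. The one-sided test for higher in PC9GRM2, which cannot call falls, gave 2, 2, 2 and 4 for no treatment, gefitinib, EGF and both.

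Pairing by hour within a line is pairing by slide. Without this replicate block, courses compared unpaired, 2 members were called for the difference of the gefitinib effect, against 6 with it, and every other count of a comparison of courses stayed within 1.5 times, at 7 against 8 for gefitinib in PC9.

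Signs turned mostly for genes with several probes. Scaling to the 75th percentile, under which other probes of HSPA8, HSP90AA1 and HSPD1, saturated on all untreated PC9 arrays, have the largest variance, turned their gefitinib effect in PC9 to 0.26, 0.14 and 0.24 and with EGF to 0.12, 0.06 and 0.08. It turned their untreated line difference to 1.84, 1.46 and 1.74, the gefitinib line difference of HSP90AA1 and HSPD1 to 0.79 and 1.18, and the difference of the gefitinib effect to -0.54, -0.68 and -0.57. HSPE1 in PC9 went to 0.07 with either set of probes. With the brightest probe, which is also 1 of the single other probes, the gefitinib effect in PC9 was 0.07 for HSPA1A and 0.09 for HSPD1, and with EGF 0.02 for HSPA8 and 0.03 for HSPD1. The untreated line difference was then 0.25 for HSP90AA1 and 0.64 for HSPD1, and with gefitinib -0.16, -0.37, 0.04 and 0.35 for HSPA1A, HSPA8, HSP90AA1 and HSPD1, whose differences of the gefitinib effect were -0.20, -0.15, -0.21 and -0.29. Further single probes gave HSPA8 0.08 and 0.15 for gefitinib in PC9, 0.09 and 0.08 with EGF, 0.58 and 0.60 for the untreated lines and -0.26 and -0.14 for the difference, and 0.01 for gefitinib in PC9GRM2. They gave HSPA1A 0.02 for gefitinib in PC9GRM2 and HSP90AA1 0.05 for the untreated lines and -0.32 for the difference. The mean of all probes gave 0.10 for HSPA8 and 0.03 for HSPD1 untreated, 0.08 for HSPD1 with gefitinib, and -0.05 for HSP90AA1 in the difference.

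Fewer hours turned small values. With time points 3 h apart HSPE1 for gefitinib in PC9 was 0.04, HSPA1A for gefitinib in PC9GRM2 0.02 and with EGF 0.11, HSPA1A between the untreated lines -0.24 and HSP90AA1 in the difference -0.03. In the first 13 HSPE1 was 0.15 and with EGF 0.02 in PC9, and the line difference was 0.33 for untreated DNAJB1 and -0.11 for HSPA8 with gefitinib. In the last 13 HSPA1A was 0.12 for gefitinib with EGF in PC9GRM2 and -0.22 between the untreated lines, DNAJB1 -0.26 and HSPD1 0.01 between the lines with gefitinib, and HSP90AB1 -0.19 in the difference. Normexp gave HSPE1 0.01 for gefitinib with EGF in PC9 and -0.08 between the lines with gefitinib. Saturation limits PC9 levels of HSPE1, of HSPH1 and of the bright probes.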

Other observations

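Likeness of level over all arrays of the 8 courses is given as a description, since the arrays share courses and slides. HSP90AA1 and HSPD1 were the most alike of the members listed here, with Pearson r of 0.81, and 0.58 once each course was centred on its mean. HSPA1A and DNAJB1, the inducible Hsp70 and its J-domain partner, had 0.62 and 0.66. HSPB1 had -0.50 with HSPD1 and -0.47 with HSPH1, and -0.26 and -0.05 after centring.

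Over all genes tested, the level most like that of DNAJB1 was JMJD6, an oxygenase, at 0.82, with the inducible Hsp70 gene HSPA6 at 0.81. HSPB1 was most like CDK5, a kinase, at 0.88, and UBXN11 at 0.87, and both led again after centring, at 0.79 each. HSPA8 was most like NUP188, a nuclear pore gene, at 0.88. After centring, the gene most like HSPA1A was NAB2, a corepressor of early growth response factors, at 0.83, followed by NOTCH1 at 0.81, and that most like HSP90AA1 was the proteasome subunit PSMD1 at 0.69.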
